A study of Mus musculus with 16 samples.

Results

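Small nucleolar RNA (snoRNA) host genes are a group of noncoding genes whose spliced RNA carries no long open reading frame and whose introns carry snoRNAs. Of 9 host genes on the list (Gas5, Snhg1, Snhg3, Snhg4, Snhg5, Snhg6, Snhg8, Snhg12 and Snhg15), 8 were matched by symbol to a row of the count table, which lists 46983 genes in all, and these 8 passed the filter on low counts that left 12805 genes. Snhg4 was not analysed here. The cells were 46C mouse embryonic stem cells (ESCs), a line from strain 129Ola that expresses GFP from the Sox1 locus, grown with leukaemia inhibitory factor and taken 48 hr after they received siRNA against RAM or non-targeting siRNA (control). RAM, encoded by Ramac, is the activating subunit of RNMT, the enzyme that methylates the cap guanosine of mRNA. From each replicate both the cytoplasmic lysate, called input, and the polysome fractions of a sucrose gradient, pooled, were sequenced, and all cells were lysed with cycloheximide, which holds ribosomes on RNA. There were thus 4 groups, input and polysomes with control siRNA and input and polysomes with RAM siRNA, with 4 replicates each and 16 libraries in all, which hold between 16647523 and 20147833 counts. All groups come from the same ESC line, the siRNA lowered Ramac RNA without removing it, and the methods describe the replicates as independent experiments. The libraries are of bulk cells, so fewer cells with an RNA and less of it per cell cannot be told apart.

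A snoRNA guides the modification of ribosomal and other RNAs. Those with C and D boxes direct ribose methylation by fibrillarin, and those with H and ACA boxes direct pseudouridylation by dyskerin. In mammals most are cut out of spliced introns, and the exons of a host gene are the remainder, which is exported, can meet ribosomes at a short reading frame upstream of several exon junctions, and for Gas5 and Snhg1 among others is known to be removed by nonsense-mediated decay. Gas5 and Snhg1 are also classical genes with a terminal oligopyrimidine (TOP) tract, a run of C and T that begins at the capped first base and is shared with ribosomal protein mRNAs, whose translation depends on growth signals. The study asked how transcript levels and ribosome loading depend on RAM, and these capped, spliced RNAs with little coding capacity are a group on which both measures can be read.

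The ends that receive the cap are shown first, since the siRNA target RAM activates the enzyme that methylates the cap. Cap methylation was not measured in these libraries. RefSeq promoters (GRCm38.p6) were found for 7 of the 9 listed genes, with 2 start sites for Gas5. Each line gives 45 bases before the annotated start and 25 bases from the start onward, 5′ to 3′ on the strand of the gene, with the longest run of C and T near the start in capitals and, where there is one, the letters TATA upstream in capitals as well.

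Gas5 upstream start: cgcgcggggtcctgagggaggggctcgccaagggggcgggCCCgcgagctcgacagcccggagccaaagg
Gas5 downstream start: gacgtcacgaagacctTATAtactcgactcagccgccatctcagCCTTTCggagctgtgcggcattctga
Snhg1: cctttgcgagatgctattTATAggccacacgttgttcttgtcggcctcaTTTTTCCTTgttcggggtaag
Snhg5: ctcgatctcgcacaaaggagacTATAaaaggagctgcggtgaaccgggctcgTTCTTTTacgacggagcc
Snhg12: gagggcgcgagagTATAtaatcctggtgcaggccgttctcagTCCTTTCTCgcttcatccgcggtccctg
Snhg8: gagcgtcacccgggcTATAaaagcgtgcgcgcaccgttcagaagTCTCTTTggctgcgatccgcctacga
Snhg3: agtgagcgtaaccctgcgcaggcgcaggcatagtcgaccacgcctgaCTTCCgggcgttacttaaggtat
Snhg15: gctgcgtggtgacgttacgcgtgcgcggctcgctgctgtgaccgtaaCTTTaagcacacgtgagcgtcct

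These windows lie at chr1:161034556-161034625 (+) and chr1:161035121-161035190 (+) for the 2 starts of Gas5, chr19:8723442-8723511 (+) for Snhg1, chr9:88522873-88522942 (-) for Snhg5, chr4:132308633-132308702 (+) for Snhg12, chr3:123508312-123508381 (-) for Snhg8, chr4:132353662-132353731 (-) for Snhg3 and chr11:6528736-6528805 (-) for Snhg15. A run of at least 6 C or T within 15 bases of the start, on the strand of the gene only, was present in 5 of these 8 promoters (62.5%), against 37.5% of all 32851 mouse promoters in the table and 63.2% of 68 promoters of cytosolic ribosomal protein genes. The runs were 9 bases in Snhg1 and Snhg12, 7 in Snhg5 and Snhg8, 6 at the downstream start of Gas5, 5 in Snhg3 and 4 in Snhg15. With the annotated first base as 1, they began at 5 in Snhg1, 8 in Snhg5 and 3 in Snhg3 and Snhg15. Those of Snhg12 (-3), Snhg8 (-1) and the downstream start of Gas5 (-1) began before the first base. None thus began at the annotated first base, and a run counted here is not by itself a TOP tract. The letters TATA, which read the same on both strands, occurred between 45 and 15 bases before the start in the same 5 promoters, against 6.7% of all promoters and 8.8% of the ribosomal protein promoters. The TATA search was chosen after the sequences had been seen, so its share among the host genes is a description. A match is a stretch of letters and not a site shown to be used in these cells.

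The snoRNAs themselves are the other product of these loci. GENCODE M21 annotates 30 snoRNA features inside the 8 host genes on the same strand, 10 in Gas5 and 8 in Snhg1. Snord47 in Gas5 and Snord87 in Snhg6 are of the C/D kind, with the C box (TGATGA) and the D box (CTGA) in capitals, and Snora73b in Snhg3 is of the H/ACA kind, with the ACA near its 3′ end in capitals. They are shown because Snora73b and Snord87 are the 2 features annotated wholly within an intron and hence the ones whose reads do not fall on an exon of the host, and Snord47 stands for those that overlap a host exon.

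Snord47: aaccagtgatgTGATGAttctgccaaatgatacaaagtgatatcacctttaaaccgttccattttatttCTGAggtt
Snord87: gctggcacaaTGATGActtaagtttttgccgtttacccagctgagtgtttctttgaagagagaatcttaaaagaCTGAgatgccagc
Snora73b: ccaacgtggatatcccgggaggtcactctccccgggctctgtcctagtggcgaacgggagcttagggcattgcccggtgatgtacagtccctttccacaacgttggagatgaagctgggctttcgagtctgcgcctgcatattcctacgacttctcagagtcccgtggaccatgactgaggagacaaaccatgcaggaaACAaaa

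On GRCm38, Snord47 lies at chr1:161038082-161038158 (+), Snord87 at chr1:9942463-9942549 (-) and Snora73b at chr4:132352322-132352526 (-). The host genes are short. Gas5 (ENSMUSG00000053332) spans chr1:161034422-161038539 (+), Snhg1 (ENSMUSG00000108414) chr19:8723475-8726443 (+), Snhg3 (ENSMUSG00000085241) chr4:132348014-132353686 (-), Snhg5 (ENSMUSG00000097195) chr9:88521050-88522929 (-), Snhg6 (ENSMUSG00000098234) chr1:9941959-9944118 (-), Snhg8 (ENSMUSG00000104960) chr3:123507552-123508404 (-), Snhg12 (ENSMUSG00000086290) chr4:132308623-132311024 (+) and Snhg15 (ENSMUSG00000085156) chr11:6525591-6528760 (-). The representative spliced transcript is between 400 bases (Snhg6) and 1004 bases (Snhg5) long, and the longest frame that opens with ATG has between 35 codons (Snhg8) and 66 codons (Snhg5). Of the transcripts annotated to Gas5, 20 of 25 retain an intron, as do 14 of 18 of Snhg1, and the union of the annotated exons of Snhg1 covers its 2969 bases without a gap. A count assigned to these genes can therefore come from spliced or from unspliced RNA, and the table does not separate them.

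The siRNA target was checked in each library before the host genes were read. Ramac had 201, 202, 197 and 206 counts in the control input libraries and 57, 46, 58 and 56 in the RAM siRNA input libraries, or 10.8 ± 0.606 and 3.004 ± 0.232 CPM (counts over library size with TMM factors; SD, n = 4), and the groups did not overlap (p = 0.0286 in a two-sided exact permutation test, the lowest value possible with 4 libraries on each side). In polysomes Ramac had 122, 130, 156 and 256 counts with control siRNA and 16, 5, 45 and 44 with RAM siRNA, again without overlap (two-sided exact permutation test, n = 4 each, p = 0.0286). Rnmt, the catalytic partner, was at 212 CPM (SD 20.96) with control and 274 CPM (SD 37.6) with RAM siRNA in input, with a log2 fold change of 0.37 and an adjusted p of 0.0389 (edgeR's quasi-likelihood test, adjusted after Benjamini and Hochberg over the 12805 genes and from here on called edgeR adjusted p, with SE the standard error). In polysomes this test did not call Ramac, at a log2 fold change of -2.52 (SE 0.55) and an edgeR adjusted p of 0.128. With the replicate number as a block the edgeR adjusted p of Ramac in polysomes was 2.36e-05. For Rnmt in polysomes, at 0.43, the edgeR adjusted p was 0.717 without that block and 0.0270 with it. The markers of ESCs were abundant. Pou5f1 (Oct4) was at 483 ± 46.2 CPM, Zfp42 at 374 ± 33.5 CPM and Nanog at 259 ± 18.5 CPM in control input (SD, n = 4). Of 12 markers of neural, endodermal and other cell types, 7 passed the filter, Tubb3 was the most abundant in control input at 32.7 ± 8.03 CPM, Nes the most abundant in RAM siRNA input at 37.2 ± 5.75 CPM, and Ptprc, a blood marker, had at most 4 counts in any input library.

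Polysome libraries of replicates 1 and 2 stood apart from those of replicates 3 and 4. The first principal component of the polysome libraries took 68.4% of the variance over 9142 genes, and its scores were between 6.74 and 57.1 for the 4 libraries of replicates 1 and 2 and between -37.9 and -14.9 for those of replicates 3 and 4. In input the first component took 43.1%, with scores from 3.40 to 15.4 for control and from -14.5 to 0.378 for RAM siRNA. The RAM siRNA library of replicate 4, at 0.378, lay near the lowest control library (3.40) and apart from the other RAM siRNA libraries (-14.5 to -11.1). The labels give no date or batch, so polysome results are also given for each pair of replicates.

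In control input the 8 host genes together had 772 ± 17.0 CPM (SD, n = 4), or between 0.0795% and 0.0822% of the counts of a library. Of the genes with C/D snoRNAs, Snhg1 had 188, 195, 192 and 177 CPM, Gas5 had 176, 170, 185 and 187 CPM, and Snhg5 had 147, 139, 154 and 154 CPM in the 4 control input libraries. Gas5 is best known as a growth arrest transcript, and Snhg1 and Snhg5 are long noncoding RNAs studied mostly in tumours. Snhg6, which holds Snord87, had 44.1 ± 1.86 CPM (SD, n = 4). Of the genes with H/ACA snoRNAs, Snhg3 had 65.7, 67.3, 71.8 and 60.9 CPM, Snhg15 had 67.8 ± 1.72 CPM and Snhg8 had 23.0, 27.5, 26.8 and 27.1 CPM. Snhg12, which holds snoRNAs of both kinds, had 52.0 ± 3.26 CPM. The coefficient of variation of the 4 control input libraries lay between 2.53% (Snhg15) and 8.07% (Snhg8), so these levels repeated closely.

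These values are not scaled to length, and levels of different genes were compared only per kilobase. Scaled to the spliced transcript, the order of mean levels in control input was Snhg1 (311 ± 12.6 CPM per kilobase; SD, n = 4), Gas5 (270 ± 11.98), Snhg3 (152 ± 10.4), Snhg5 (148 ± 6.95), Snhg15 (115 ± 2.90), Snhg6 (110 ± 4.64), Snhg12 (85.7 ± 5.38) and Snhg8 (49.4 ± 3.99). In this order the library ranges of Snhg3 and Snhg5 overlapped, as did those of Snhg15 and Snhg6, and the other neighbours did not. Scaled to the union of annotated exons, which includes retained introns, Snhg5 led with 85.8 ± 4.03 CPM per kilobase and Gas5 fell to 47.7 ± 2.12. In that order the library ranges of Snhg3 (67.4 ± 4.59) and Snhg1 (63.3 ± 2.56) overlapped, as did those of Snhg15 (49.9 ± 1.26) and Gas5. The order of levels thus depended on which length was used.

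**Figure D1:**
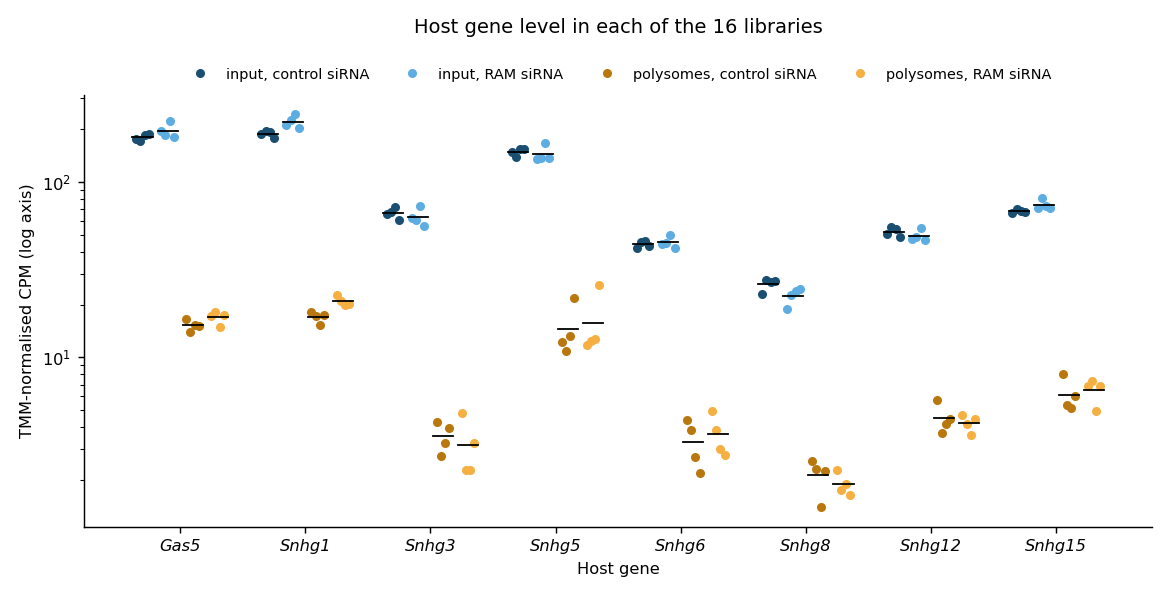
TMM-normalised CPM (log axis) of the 8 host genes in each of the 16 libraries, with 1 point per library and the mean of the 4 replicates of a group as a line. For each gene the 8 polysome libraries lie below the 8 input libraries, and replicate 4 of Snhg5 lies above the other polysome libraries of its group, at 21.9 CPM with control siRNA and 25.8 CPM with RAM siRNA.

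The host genes were depleted from polysomes. In control cells the 8 genes together fell from 772 ± 17.0 CPM in input to 66.6 ± 7.17 CPM in polysomes (SD, n = 4), a level 11.6-fold lower. Each of the 8 genes was lower in polysomes (edgeR adjusted p between 8.94e-09 and 3.19e-07), as were 34.3% of all genes tested, and log2 fold changes ran from -4.25 for Snhg3 to -3.38 for Snhg5 with a median of -3.58, against a median of -0.0008 over all genes tested. For each of the 8 genes every control polysome library lay below every control input library, which was the case for 30.4% of genes tested, and the same held for the 8 genes in RAM siRNA cells, against 25.2% of genes tested. These values are relative to the total of each fraction and do not give the share of molecules in polysomes.

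Gas5 had 308, 265, 272 and 267 counts in the control polysome libraries against 3338, 3397, 3395 and 3325 in input, that is 16.6, 14.0, 15.3 and 15.1 CPM against 176, 170, 185 and 187 CPM. Its polysome level was 8.11% to 9.45% of the input level of the same replicate, the tightest range of the 8 genes, and its log2 fold change was -3.59 (SE 0.11). Snhg1 had 18.1, 17.3, 15.3 and 17.6 CPM in control polysomes, or 8.001% to 9.897% of input, with a log2 fold change of -3.49 (SE 0.11). Both genes were thus found in polysomes at close to the same fraction of their input level in all 4 replicates.

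Snhg3 was the most depleted of the 8, at 4.32, 2.74, 3.26 and 3.96 CPM in control polysomes. This was 4.08% to 6.57% of its input level, with a log2 fold change of -4.25 (95% confidence interval -4.59 to -3.92). The interval lay below those of Gas5, Snhg1, Snhg5, Snhg12 and Snhg15 and overlapped those of Snhg6 (-4.18 to -3.37) and Snhg8 (-4.01 to -3.25), and no test between genes was made. Snhg5 was the least depleted on average, with 12.2, 10.8, 13.3 and 21.9 CPM in control polysomes, where replicate 4 was higher than the rest. Without the control polysome library of replicate 4 its log2 fold change was -3.66 instead of -3.38, while that of Snhg15 was -3.49, so the place of Snhg5 as the least depleted rested on that library.

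Snhg6, Snhg8, Snhg12 and Snhg15 lay between these, with polysome means of 7.51%, 8.33%, 8.76% and 9.11% of input in control cells. They had between 25 and 149 counts in a control polysome library, against 436 to 1403 in input, so their polysome values are less precise than those of Gas5 and Snhg1. In Snhg6, replicates 1 and 2 were at 10.6% and 8.51% and replicates 3 and 4 at 5.87% and 5.10%, a split like that of the polysome libraries as a whole. For Snhg8, Snhg12 and Snhg15 replicate 1 was the highest, at 11.3%, 11.4% and 12.2%. With RAM siRNA the polysome means of the 4 genes were 8.15%, 8.64%, 8.68% and 8.82% of input in the same order.

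In RAM siRNA cells each of the 8 host genes was again lower in polysomes than in input (edgeR adjusted p between 3.09e-07 and 1.40e-05), as were 25.9% of all genes tested, with log2 fold changes from -4.31 (Snhg3) to -3.20 (Snhg5) and a median of -3.52. With RAM siRNA, Gas5 had 17.2, 18.2, 14.8 and 17.5 CPM in polysomes, or 6.71% to 9.87% of input, and Snhg3 had 4.80, 2.28, 2.30 and 3.25 CPM, or 3.16% to 7.75%. The ranges of the replicates overlapped those with control siRNA for both genes. The sum of the 8 fell from 813 ± 64.0 CPM in input to 72.9 ± 8.06 CPM in polysomes (SD, n = 4). Within replicates 1 and 2 alone the 8 log2 fold changes ran from -4.29 to -3.40 with control and from -4.11 to -3.31 with RAM siRNA, and within replicates 3 and 4 alone from -4.20 to -3.13 and from -4.54 to -2.99, and each of the 8 was called in all 4 of these fits. The median of the 8 was -3.52 in replicates 1 and 2 and -3.60 in replicates 3 and 4 with control siRNA, and -3.41 and -3.64 with RAM siRNA. The median depletion was thus similar in both pairs, although the polysome libraries themselves differed. Single genes differed more, as Snhg5 was at -3.69 in replicates 1 and 2 and -3.13 in replicates 3 and 4 with control siRNA.

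**Figure D2:**
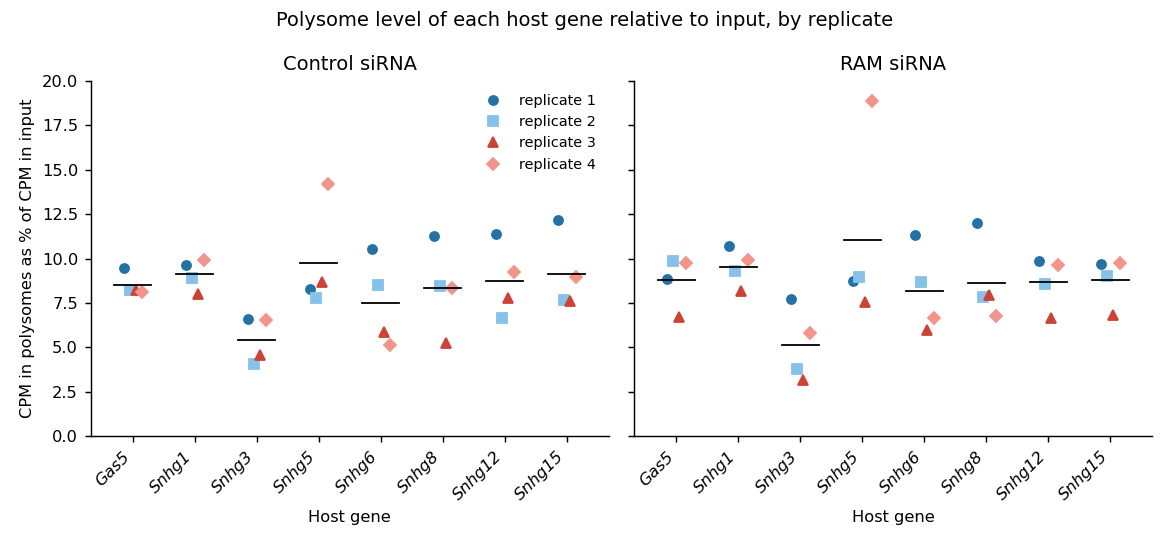
Level of each host gene in polysomes as a percentage of its level in the input library of the same siRNA and replicate number (TMM-normalised CPM), with a marker for each replicate and a line at the mean. Values lie between 3.16% and 18.9%, Snhg3 is lowest in both panels, and replicate 4 of Snhg5 is highest, at 14.2% with control siRNA and 18.9% with RAM siRNA.

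Among the 12805 genes tested in control cells, ranked from the most depleted, the 8 host genes took places between 40 (Snhg3) and 89 (Snhg5). Of the 682 tested genes that are not protein-coding, between 34 and 77 were more depleted than a given host gene. Of all genes tested, 34.3% were lower and 33.1% higher in control polysomes, and 25.9% were lower with RAM siRNA. The 5 other noncoding snoRNA host genes that passed the filter (Zfas1, Snhg11, Snhg14, Snhg17 and Snhg20, of 8 in the table) were also each lower in polysomes (Snhg11 is listed as protein-coding in GENCODE M21), with a median log2 fold change of -3.92 with control siRNA and -3.85 with RAM siRNA. Snhg17 fell by 3.898 on the log2 scale (SE 0.14, edgeR adjusted p = 1.06e-08) and Zfas1 by 3.48 (SE 0.17, edgeR adjusted p = 5.51e-08). The other long noncoding RNA genes were more varied, with 193 of 215 lower and 7 higher in control polysomes (195 and 7 with the block) and a median of -1.96 (quartiles -2.82 and -1.32).

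Nuclear RNAs were present in the cytoplasmic input, and in control cells 3 of 4 were further depleted from polysomes than any of the 8 host genes. With RAM siRNA this held for Malat1 (-5.05) and Rn7sk (-5.19), while Neat1 was at -4.11 and Snhg3 at -4.31. Malat1, a nuclear speckle RNA, had 5217 ± 1324 CPM in control input and 160 ± 51.7 CPM in control polysomes (SD, n = 4), and Rn7sk, the scaffold of the 7SK complex, had 12410 ± 1478 and 347 ± 124 CPM. Their log2 fold changes were -5.07 and -5.20 (SE 0.28 for both; edgeR adjusted p = 1.50e-07 and 1.15e-07), and that of Neat1, the scaffold of paraspeckles, was -4.47 (SE 0.31, edgeR adjusted p = 6.50e-07). Of the 4 RNAs each was lower in control polysomes, where 34.3% of all genes tested were, and 3 were lower with RAM siRNA, where 25.9% were (4 with the replicate block, where 29.9% of all genes tested were lower). Kcnq1ot1, an imprinted antisense RNA that was the least depleted of the 4 at -1.96, had 80.5 ± 20.3 CPM in control input. The part that RNA of nuclear origin has in the input level of the host genes was not tested.

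Protein-coding genes that also carry snoRNAs were split instead. Of 23 such genes, 4 were lower and 12 higher in control polysomes, with a median log2 fold change of 0.44 (34.3% of all genes tested were lower and 33.1% higher), and in RAM siRNA cells 3 were lower and 7 higher, with a median of 0.39 (25.9% and 27.3% of all genes tested). Rpl7a, a ribosomal protein of the large subunit, rose by 1.11 on the log2 scale in control polysomes (SE 0.16, edgeR adjusted p = 1.10e-04) and Eif4a1, the helicase of the cap-binding complex, by 0.93 (SE 0.13, edgeR adjusted p = 7.73e-05). Its paralog Eif4a2 fell by 1.33 (SE 0.11, edgeR adjusted p = 2.07e-06), and Rps12, a ribosomal protein of the small subunit, fell by 2.10 (SE 0.24, edgeR adjusted p = 1.99e-05). Without the genes that encode ribosomal proteins, 2 of 9 were lower and 6 higher in control polysomes, and 1 was lower and 2 higher with RAM siRNA.

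The 78 cytosolic ribosomal protein genes tested, which share the TOP tract, had 24 lower and 20 higher in control polysomes and a median of -0.17, where 34.3% of all genes tested were lower and 33.1% higher. In RAM siRNA cells 13 were lower and 11 higher, with a median of 0.04, where 25.9% and 27.3% of all genes tested were. With the replicate block 29 were lower in control polysomes and 18 with RAM siRNA, where 37.2% and 29.9% of all genes tested were, and 20 and 11 were higher. The counts are not a result about this list. The 2 with the smallest p among those that fell were Rpl41 at -2.85 and Rps29 at -2.74 (SE 0.15 and 0.14, edgeR adjusted p = 9.97e-08 and 1.03e-07), which were nonetheless less depleted than each of the 8 host genes.

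**Figure D3:**
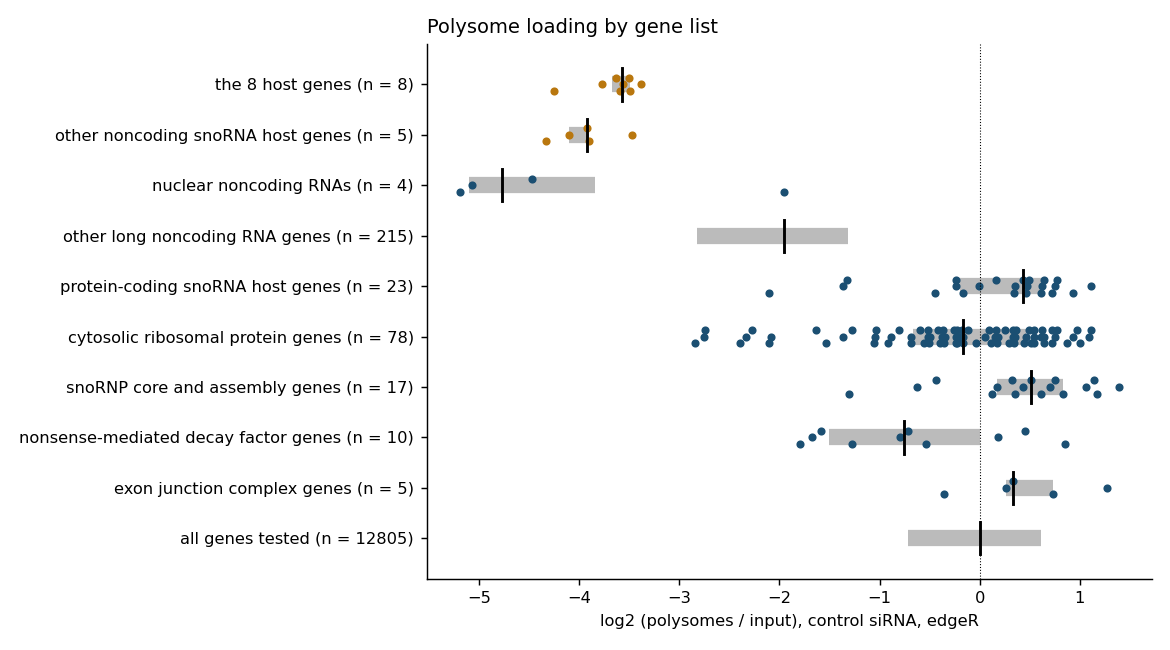
Log2 ratio of polysomes to input in control cells (edgeR) by gene list, with a point per tested gene where the list is short, a black bar at the median and a grey band between the quartiles. The medians of the 8 host genes (-3.58) and the 5 other noncoding hosts (-3.92) lie left of that of the other long noncoding RNA genes (-1.96), some of which lie further left, and the 23 protein-coding hosts have a median of 0.44.

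The genes that make and modify these RNAs were measured beside them, where 34.3% of all genes tested were lower and 33.1% higher in control polysomes, and 25.9% and 27.3% with RAM siRNA. With the replicate block the shares were 37.2% and 35.1% in control polysomes and 29.9% and 28.8% with RAM siRNA. Of 17 genes for snoRNP proteins and their assembly factors, 2 were lower and 11 higher in control polysomes (3 and 12 with the block) and 1 was lower and 7 higher in RAM siRNA polysomes. Znhit6, an assembly factor of C/D snoRNPs, rose by 1.17 in control polysomes (SE 0.12, edgeR adjusted p = 1.06e-05) and Ruvbl2, an ATPase of the R2TP assembly complex, by 1.06 (SE 0.11, edgeR adjusted p = 1.10e-05), while Nop10, the smallest core protein of H/ACA snoRNPs, fell by 1.31 (SE 0.23, edgeR adjusted p = 4.36e-04). Of 10 genes for nonsense-mediated decay factors, which act on host gene RNAs, 7 were lower and 2 higher in control polysomes and 5 were lower and 1 higher with RAM siRNA, where the block gave 7 lower and 1 higher. Smg8, a regulator of the SMG1 kinase, rose by 0.86 in control polysomes (SE 0.13, edgeR adjusted p = 1.16e-04). Of 5 exon junction complex genes, 1 was lower and 2 higher in control polysomes, Eif4a3, its anchor on RNA, among the latter with a rise of 1.28 (SE 0.12, edgeR adjusted p = 4.06e-06). In RAM siRNA polysomes none of these 5 was lower in edgeR's test (0 at an unadjusted p under 0.05) and 2 were higher.

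Several host genes share their locus with a protein-coding gene, which serves as a comparison from the same place in the genome. Slc3a2, the heavy chain of amino acid transporters, starts 106 bases from the start of Snhg1 on the opposite strand and does not overlap it. It had 913, 988, 1012 and 875 CPM in control input and 2042, 2106, 2079 and 1473 CPM in control polysomes, a log2 fold change of 0.99 (SE 0.15, edgeR adjusted p = 1.06e-04), where Snhg1 was at -3.49. Rcc1, a chromatin-bound exchange factor for Ran, lies on the same strand as Snhg3, shares 135 exon bases with it and starts 81 bases from it, and was higher in control polysomes by 0.33 (SE 0.10, edgeR adjusted p = 0.0143), where Snhg3 was at -4.25. With RAM siRNA the log2 fold change of Rcc1 was 0.18 (SE 0.16, edgeR adjusted p = 0.383), which was not called. Zbtb37, a zinc finger gene on the opposite strand that overlaps the Gas5 locus, had a log2 fold change of -2.32 (SE 0.22, edgeR adjusted p = 5.21e-06). Gm17300 and Mcmdc2, which overlap Snhg3 and Snhg6 on the opposite strand, had at most 10 and 16 counts in a library. The kit keeps the strand, but whether counting used it is not given in the sources used here, and reads from overlapping partners cannot then be told apart with certainty.

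**Figure D4:**
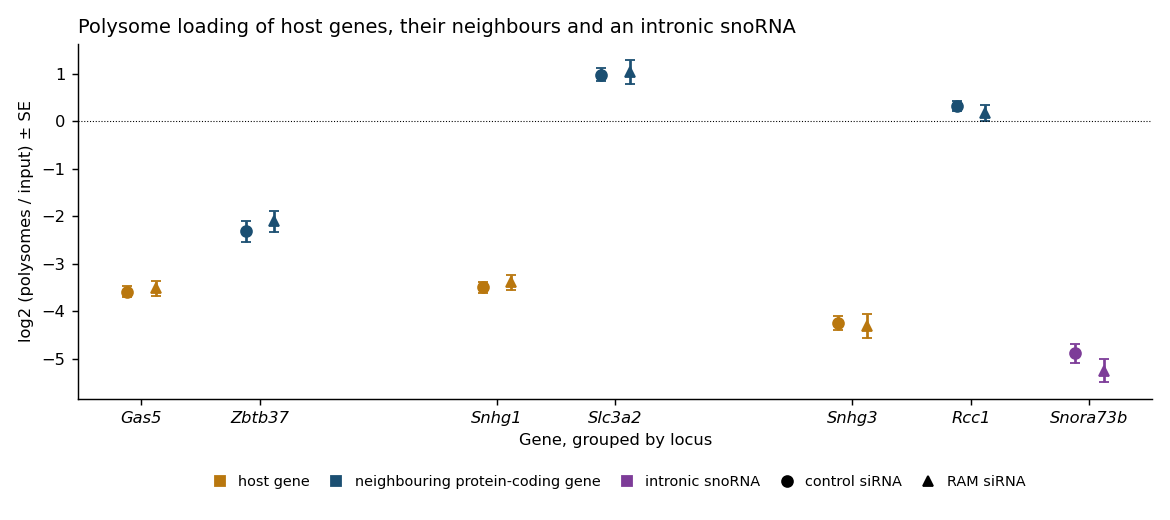
Log2 ratio of polysomes to input (edgeR, with the standard error) for 3 host genes, a protein-coding neighbour of each and the intronic snoRNA of Snhg3, with circles for control siRNA and triangles for RAM siRNA. Slc3a2 and Rcc1 lie above 0 beside Snhg1 and Snhg3, though Rcc1 with RAM siRNA (0.18) was not called, Zbtb37 lies at -2.32 and -2.10 beside Gas5, and Snora73b lies below Snhg3.

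Of the 30 annotated snoRNA features inside the host genes, 26 were at 0 in each of the 16 libraries. These 26 overlap an exon of an annotated host transcript, where a read on the snoRNA also falls on the host, and Snord47, shown above, was one of them. A count of 0 in this table therefore says nothing about the amount of these snoRNAs, and the kit does not select small RNAs. Snora73a in Snhg3, which overlaps an exon and is a close copy of Snora73b, had 40 to 61 counts in control input, and how reads were split between the copies is uncertain. The 2 intronic features both had counts. Snora73b had 2656, 2862, 2620 and 1625 counts in control input and 87, 65, 83 and 90 in control polysomes, or 129 ± 25.5 and 4.47 ± 0.722 CPM (SD, n = 4), with a log2 fold change of -4.89 (SE 0.20, edgeR adjusted p = 1.83e-08). In RAM siRNA cells it had 2579, 2811, 3324 and 1935 counts in input and 62, 51, 86 and 73 in polysomes, a log2 fold change of -5.26 (SE 0.24). Per kilobase it was at 631 ± 124 CPM in control input, where its host Snhg3 was at 152 ± 10.4 per kilobase of spliced transcript. Snord87 had 24, 30, 29 and 20 counts in control input and 2, 4, 0 and 1 in control polysomes, and did not pass the filter.

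Between siRNAs the host genes differed by less than between fractions. In input, none of the 8 host genes was called in edgeR's quasi-likelihood test, where 12.9% of all genes tested were called. At an unadjusted p under 0.05 in that test there were 2, against 3591 of all 12805 genes tested. DESeq2 called 1, Snhg1, where it called 1978 of all genes tested. The likelihood ratio test and limma-voom called 0 of the 8, and 2171 and 1667 of all genes tested. The 8 log2 fold changes lay between -0.22 (Snhg8) and 0.23 (Snhg1) with a median of -0.01. The libraries are paired by replicate number, which the fits above leave out. With the replicate number as a block, 3 of the 8 were called, 1 lower and 2 higher, where 39.3% of all genes tested were called (19.0% lower and 20.3% higher). With the block this share is near that of all genes, and so the number of calls is not a result about the host genes.

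Snhg1 had 188, 195, 192 and 177 CPM in control input and 212, 225, 243 and 202 CPM in RAM siRNA input. The groups did not overlap, and the gene was higher in each of the 4 same-numbered pairs, by 0.17 to 0.34 on the log2 scale. Its log2 fold change was 0.23 (SE 0.08), with an edgeR adjusted p of 0.0725 without the block and 3.58e-04 with it, and the RAM siRNA library of replicate 4 was the lowest of its group. Without that library the edgeR adjusted p was 0.0175, and without each of the other 7 libraries in turn it lay between 0.091 and 0.189, with log2 fold changes from 0.17 to 0.25. Slc3a2, beside Snhg1, had a log2 fold change of 0.29 (SE 0.09, edgeR adjusted p = 0.0584 without the block and 3.24e-05 with it).

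Snhg8 had 23.0, 27.5, 26.8 and 27.1 CPM in control input and 19.0, 22.7, 23.9 and 24.5 CPM in RAM siRNA input. The groups overlapped, and the gene was lower in each of the 4 pairs, with a log2 fold change of -0.22 (SE 0.10) and an edgeR adjusted p of 0.163 without the block and 0.00771 with it. Snhg15 had 66.0, 70.1, 67.8 and 67.2 CPM in control input and 70.7, 81.2, 72.5 and 70.8 CPM in RAM siRNA input, without overlap. Its log2 fold change was 0.12 (SE 0.07), with an edgeR adjusted p of 0.278 without the block and 0.0427 with it. The groups did not overlap in 2 of the 8 host genes, against 18.0% of all genes tested. Gas5, at 195, 185, 221 and 179 CPM in RAM siRNA input, overlapped its control libraries and was not called with or without the block (edgeR adjusted p = 0.377 without it and 0.0648 with it). For Snhg3, Snhg5, Snhg6 and Snhg12 the 95% confidence intervals without the block included 0 and together ran from -0.27 to 0.20.

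In polysomes, none of the 8 host genes was called (edgeR's quasi-likelihood test), where 0.0234% of all genes tested were called. With the replicate block 0 of 8 and 14.6% of all genes were called. The siRNA target Ramac was called there only with the block (edgeR adjusted p = 0.128 without it and 2.36e-05 with it). A missing call in polysomes without the block therefore does not show that a gene was unchanged. Without the block 1 of the 8 had an unadjusted p under 0.05, as had 1152 of all 12805 genes tested. DESeq2, the likelihood ratio test and limma-voom called 0 of the 8, and 300, 200 and 3 of all genes tested. Snhg1 had 18.1, 17.3, 15.3 and 17.6 CPM in control polysomes and 22.7, 20.9, 19.9 and 20.03 CPM in RAM siRNA polysomes, without overlap, which was the case for 6.56% of genes tested, and was higher in each of the 4 pairs. Its log2 fold change was 0.34 (95% confidence interval 0.04 to 0.63), with an edgeR adjusted p of 0.462 without the block and 0.0547 with it. The other 7 log2 fold changes lay between -0.14 (Snhg3) and 0.20 (Gas5), and their libraries overlapped. Of these 7, Snhg6 was also higher in each of the 4 same-numbered pairs, by 0.01 to 0.33 on the log2 scale, and was not called with or without the block. Snhg5 had 11.8, 12.3, 12.7 and 25.8 CPM in RAM siRNA polysomes, with replicate 4 again the highest. Its log2 fold change of 0.15 was 0.42 without the control library of replicate 4 and -0.21 without the RAM siRNA library of replicate 4. Its sign thus turned when only the latter library was left out. It was 0.10 within replicates 1 and 2 alone, which leaves out both libraries of replicate 4, and 0.13 with the replicate block.

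The change in polysome loading, that is the log2 change in polysomes less that in input, was tested in a single fit over all 16 libraries. The changes above come from separate fits within each fraction, so their differences need not equal the values of this fit. For Snhg1 it gave 0.06, beside 0.34 in polysomes and 0.23 in input. For Snhg15 it gave -0.04, beside 0.13 and 0.12. None of the 8 host genes was called in edgeR's quasi-likelihood test, and 0 had an unadjusted p under 0.05, as DESeq2, the likelihood ratio test and limma-voom also called 0 of the 8, where 0.0% of all genes tested were called with and without the block and 100 had an unadjusted p under 0.05. The estimates lay between -0.10 (Snhg3) and 0.15 (Snhg5) with a median of 0.03. The 95% confidence intervals were narrowest for Snhg1 (-0.26 to 0.38) and Gas5 (-0.30 to 0.37) and widest for Snhg5 (-0.57 to 0.87), so a change in loading of the size seen between fractions lies outside each of them, and changes within them were not detectable with this spread.

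**Figure D5:**
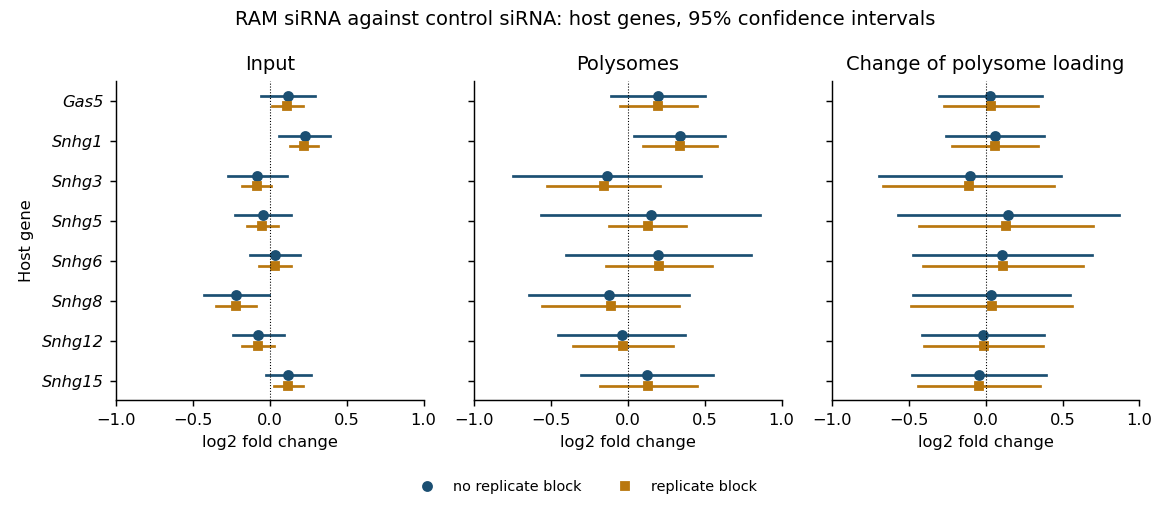
Log2 fold change of the 8 host genes with RAM siRNA against control siRNA in input, in polysomes and as a change of polysome loading, with 95% confidence intervals, as circles without and squares with the replicate block. Snhg1 lies above 0 in input and in polysomes, at 0.23 and 0.34, and for the change of polysome loading each interval includes 0.

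The other lists were compared in the same way. In RAM siRNA input 5.94% of all genes tested were lower and 6.95% higher, and with the replicate block 19.0% and 20.3%. At an unadjusted p under 0.05 without the block, 1653 of all 12805 genes tested were lower there and 1938 higher. Of the 5 other noncoding hosts, 1 was higher there, Snhg17, at 94.7 ± 4.21 CPM with control and 127 ± 9.14 CPM with RAM siRNA (SD, n = 4; log2 fold change 0.42, SE 0.07, edgeR adjusted p = 0.00388), and with the replicate block 3 were higher. Of the 17 snoRNP genes, 1 was higher, Nop10, by 0.46 (SE 0.07, edgeR adjusted p = 0.00138), and with the block 3 were lower and 2 higher. In edgeR's test 0 of the 10 decay factor genes were called (1 lower and 0 higher at an unadjusted p under 0.05; 3 lower and 1 higher with the block), 0 of the 5 exon junction genes (2 lower unadjusted; 2 lower with the block) and 0 of the 23 protein-coding hosts (1 lower and 1 higher unadjusted; 2 lower and 2 higher with the block). Of the 78 ribosomal protein genes 1 was lower, Rpl12, by 0.27 (SE 0.08, edgeR adjusted p = 0.0418), and with the block 5 were lower and 1 higher. The 4 nuclear RNAs had 0 calls in edgeR's test in input (0 at an unadjusted p under 0.05) and 1 higher with the block, Malat1. In polysomes none of these lists had a call between siRNAs in edgeR's test, where 0.0234% of all genes tested were called. They held 0 genes at an unadjusted p under 0.05, against 1152 of all 12805 genes tested. With the block Nop10 and 2 nuclear RNAs were higher in polysomes, where 14.6% of all genes tested were called. For the change of loading these lists had 0 calls with and without the block. There 1 gene, Upf3b of the decay factors, had an unadjusted p under 0.05, against 100 of all genes tested.

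Markers of cell state were read in the same input libraries, where 5.94% of all genes tested were lower and 6.95% higher, and 19.0% and 20.3% with the block. Of 6 ESC markers, 2 were lower with RAM siRNA, Nanog by 0.29 and Esrrb by 0.25 (edgeR adjusted p = 0.0205 and 0.0290), and with the block 5 were lower. Their sum was 1924, 1954, 1831 and 2091 CPM in control input and 1669, 1728, 1650 and 1840 CPM in RAM siRNA input. Of the 7 tested markers of other cell types 1 was higher, Gata6, an endoderm factor, by 0.61 (edgeR adjusted p = 0.0196), and with the block 1 was lower and 2 higher. The lower one was Pax6, a neural factor, with a log2 fold change of -0.50 (SE 0.15, edgeR adjusted p = 0.0506 without the block and 2.87e-04 with it), and in polysomes of -0.93 (SE 0.18, edgeR adjusted p = 0.0936 and 4.76e-04). The 2 higher with the block were Gata6 and Nes, so the neural markers called with it went both ways. Nes had a log2 fold change of 0.425 (SE 0.13, edgeR adjusted p = 0.0531 without the block and 3.70e-06 with it). In polysomes Nes was at 0.61 (SE 0.57) and was not called (edgeR adjusted p = 0.909 without the block and 0.0559 with it). The sum over the 12 markers was 90.4, 97.1, 84.3 and 96.4 CPM in control input and 101, 110, 93.5 and 106 CPM in RAM siRNA input, with Tubb3 the most abundant in control input and none of the 12 at 0 in all libraries. In polysomes the sum of the ESC markers was 2288 to 2908 CPM with control and 1827 to 2599 CPM with RAM siRNA, and that of the other markers 102 to 130 CPM and 92.0 to 122 CPM. The part of these markers in the values of the host genes was not tested.

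The genes whose pattern over the 16 libraries was most like that of the host genes were sought by the root mean square distance between log2 CPM profiles, each centred on its own mean, to the mean profile of the 8. The 5 nearest genes outside the list were Zfas1 (distance 0.15), 1110038B12Rik (0.17), 1810032O08Rik (0.18), Snhg20 (0.19) and Cox17 (0.22), where the median over the genes tested was 1.77 and the first percentile 0.54. Of these, 4 are annotated as noncoding, Zfas1 and Snhg20 are host genes on the second list, and Cox17, which encodes a copper chaperone of the mitochondria, is protein-coding, with a log2 fold change of -3.88 in control polysomes against input. The 8 host genes lay between 0.09 (Snhg12) and 0.36 (Snhg3) from their own mean, to which each of them contributes. Of the genes tested, host genes included, 47 lay closer to that mean than Snhg3 and 27 closer than Snhg5. Most of this pattern is the difference between fractions, which all these genes share.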

How the data were processed

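The authors mapped the reads to GRCm38/mm10 with STAR 2.5.1b, used htseq-count for gene counts, and deposited these raw counts without normalization. The strand and overlap settings and the annotation release are not given in the sources used here. The kit removed ribosomal RNA and retains strand information. Samples were grouped by the labels, and 0 columns belong to other samples. Of the gene identifiers, 46488 were named from GENCODE M21. Genes that reached 1 CPM in 10 or more of the 16 libraries were tested with edgeR 4.0.16 (R 4.3.3, TMM, quasi-likelihood test, Benjamini-Hochberg adjustment over all genes tested, threshold 0.05), with no replicate block, within the groups compared, and over all groups for the change of loading. CPM values used TMM factors of all 16 libraries, and profile distances a pseudocount of 0.5 CPM. By the methods, part of each extract was kept as input and the rest run on the gradient, and the experiment was done on independent occasions. The main fits without a block leave this pairing out. Same-numbered libraries deviated together over 9140 genes (lowest r 0.40 between siRNAs in input, 0.63 in polysomes, 0.24 and 0.30 between fractions), so the replicate numbers follow a pairing in the data as well. Blocked values are given where they change a call. Pairs of libraries within a group differed by a chi-square per gene of at least 4.57, so none is a copy. Depth limits precision by counting error only where counts are low. The steps were tested on simulated data with a fixed dispersion and no difference between replicates. That setting lacks the spread of the real polysome libraries, so it does not show how the tests behave there. The host genes and lists were chosen with earlier results of these data known. Named genes are the host genes, Ramac, Rnmt, annotated neighbours, snoRNAs inside the host genes, markers by level, up to 2 genes with the smallest p per direction in each list and comparison, and the 5 nearest profiles. Of these, 1 gene is not reported here. Alternatives were DESeq2 1.42.0, the likelihood ratio test, limma-voom (limma 3.58.1), scaling by RLE, the upper quartile or library size alone, other filters, a threshold of 0.01, the replicate block, all libraries in one fit, single pairs of replicates, and each library left out.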

Additional observations from a re-analysis of the deposited data

Results flagged for a closer look

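Over the 8 host genes and their sum in the 4 groups, 36 groups of 4 libraries were examined for a library far from the other 3, and 4 were marked, where chance marks about 5% of groups. Snhg5 in RAM siRNA polysomes was at 25.76 CPM in replicate 4, against 11.8, 12.3 and 12.7 CPM in the others, and in RAM siRNA input at 167.4 CPM in replicate 3, against 135, 137 and 137 CPM. Snhg8 in control input was at 22.97 CPM in replicate 1, against 27.5, 26.8 and 27.1 CPM. Snhg15 in RAM siRNA input was at 81.18 CPM in replicate 2, against 70.7, 72.5 and 70.8 CPM. Without these libraries the log2 fold change of Snhg5 between polysomes and input in RAM siRNA cells was -3.55, that of Snhg5 between siRNAs in input was -0.13, that of Snhg8 -0.27 and that of Snhg15 0.07, each with the sign it had with all libraries. The sign of Snhg5 did turn in 2 other values without the RAM siRNA polysome library of replicate 4, from 0.15 to -0.21 between siRNAs in polysomes and from 0.15 to -0.20 for the change of loading.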

How the results depend on the processing

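Each of the 8 host genes was lower in polysomes than in input in both siRNA groups under each alternative run. In RAM siRNA input, where none of the 8 was called, the replicate block called 3 (Snhg1 0.22, Snhg8 -0.22, Snhg15 0.12), DESeq2 called 1 and replicates 1 and 2 alone called 1, Snhg1 in both; leaving out single libraries gave 0 to 1. Over all genes tested, 1651 were called in input, 5028 with the block, 1978 with DESeq2 and 619 at an adjusted p under 0.01 (edgeR). With all libraries in one fit 186 were called, in replicates 1 and 2 alone 2629, and in replicates 3 and 4 alone 0 (edgeR). Leaving out single libraries gave from 906 (without RAM siRNA replicate 1) to 2506 (without RAM siRNA replicate 4) in input. In polysomes 3 were called, 1875 with the block, 300 with DESeq2, 200 with the likelihood ratio test, 32 without a filter, 19 with filterByExpr, 453 with all libraries in one fit, 0 at an adjusted p under 0.01 and in each pair of replicates, and 0 to 48 without single libraries. For the change of loading 0 were called, 1 with DESeq2, 1 with the likelihood ratio test and 2 with the block within each fraction, none of them a host gene. The block changed no other call of a host gene. In polysomes no alternative called a host gene, and the sign turned for Snhg3 (0.0371) in replicates 1 and 2 and for Snhg8 (0.0167) in replicates 3 and 4. For the change of loading, where each main value is near 0, the sign turned for Snhg12 with DESeq2 (0.0229), RLE (0.02515), upper-quartile (0.0176) and library-size scaling (0.001495), no filter (0.05999), a mean of at least 10 CPM (0.0144), filterByExpr (0.0391) and replicates 1 and 2 (0.11), for Snhg15 without a filter (0.0306) and with filterByExpr (0.00988), for Snhg3 in replicates 1 and 2 (0.17) and for Gas5 in replicates 3 and 4 (-0.0185). The median loading change of the 8 was 0.03, 0.13 in replicates 1 and 2, and -0.06 to 0.13 without single libraries. Without single libraries, loading changes ran from -0.00833 to 0.15 (Gas5), -0.37 to 0.0246 (Snhg3), -0.20 to 0.41 (Snhg5), -0.0712 to 0.28 (Snhg6), -0.11 to 0.15 (Snhg8), -0.10 to 0.12 (Snhg12) and -0.12 to 0.11 (Snhg15), and siRNA effects turned sign for Snhg6 in input (-0.0234 to 0.0718) and for Snhg5 (-0.21 to 0.42) and Snhg12 (-0.14 to 0.0645) in polysomes. The cause was not tested. Without a filter the median of all genes was -0.18 in control and -0.16 in RAM siRNA polysomes against input. Polysome counts of 25 to 149 in the less abundant host genes limit what can be seen there.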
